A study of Rattus norvegicus with 3 samples.

Results

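The epidermal growth factor (EGF)-like ligands, the receptors they bind and Adam17, the protease that frees several of these ligands from the cell surface, were followed in cultured rat granulosa cells. They were 9 genes, chosen by name, and all probe sets that the platform annotation assigns to 1 of these symbols alone were taken. That gave 12 of the 31099 probe sets on the array and 9 of 14218 named genes. The ligands were Areg, Ereg, Btc, Hbegf and Tgfa, and the receptors were Egfr, Erbb2 and Erbb3.

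The cells were granulosa cells set free by follicular puncture 48 h after PMSG, a gonadotropin from pregnant mares that makes follicles grow until they can ovulate. The donors were immature Sprague-Dawley females, aged between 24 and 25 days. There were 3 groups. Cells of the Ad-NFIL3 with FSK/PMA group were infected with an adenovirus that carries NFIL3, a basic leucine zipper repressor of transcription, and were then given 10 uM forskolin (FSK) and 20 nM phorbol 12-myristate 13-acetate (PMA) for 6 h. Cells of the Ad-GFP with FSK/PMA group had the same stimulus after a virus that carries green fluorescent protein, and Ad-GFP cells had that virus and no FSK/PMA. All groups shared the PMSG priming and an infection at 50 pfu per cell, 24 h before the stimulus would begin. Forskolin activates adenylyl cyclase and PMA activates protein kinase C, which stands in here for the ovulatory gonadotropin signal. The cells were not sorted, and the labels do not say whether a vehicle was given to the Ad-GFP cells.

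Per group, RNA of 3 experiments was pooled and measured on 1 Affymetrix array. Without replicate arrays there is no test and no standard deviation, precision is limited by the number of arrays, and differences between groups and between arrays cannot be told apart. Values are linear MAS5 signals, which give the intensity of a probe set. A signal under 126, which is the median of every signal on the 3 arrays, was set to that floor before log2 was taken. A fold against an array below the floor is therefore a lower limit, written as at least that size. The median deposited signal was 136, 115 and 127 on the Ad-NFIL3 with FSK/PMA, Ad-GFP with FSK/PMA and Ad-GFP arrays. Nfil3 itself had signals of 5882, 1321 and 564 in that order, so the array labelled Ad-NFIL3 had the highest. Whether its probe set reads the RNA made from the virus, the cell's own transcript or both is not known here. Of 8 granulosa markers, 7 were on the array and 0 of these were below the floor on all arrays. Their summed signal was 30840 on the Ad-NFIL3 with FSK/PMA array, 59228 on the Ad-GFP with FSK/PMA array and 70964 on the Ad-GFP array. Inha, at 18604, 29911 and 26489, and Inhba, at 8520, 21912 and 29369, made up most of it. With Ad-NFIL3 under stimulation 4 of the 7 were lower by 2-fold or more, against 0.958% of all measured genes. The median difference was -1.10 (log2), against 0.03 for all measured genes. Inha differed by -0.69, Foxl2 by -0.31 and Amh by 0.25. Cyp19a1 was among the 4, but with FSK/PMA it was at least 19.8-fold higher. The part of these markers in the NFIL3 comparison was not tested. Because these are bulk samples, fewer cells of a type and less RNA per cell cannot be told apart.

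EGF-like ligands are made as membrane proteins and act on neighbouring cells once a protease such as ADAM17 cuts them free. They bind EGFR (also called ERBB1) or ERBB4, which pair with each other or with ERBB2 and ERBB3 and switch on the RAS and ERK kinase cascade. In the preovulatory follicle, luteinizing hormone acts on mural granulosa cells, and amphiregulin, epiregulin and betacellulin pass its signal on to cumulus cells, where EGFR signalling drives cumulus expansion and resumption of meiosis in the oocyte.

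Areg, which encodes amphiregulin, and Ereg, which encodes epiregulin, were the ligand genes that were higher with FSK/PMA by 2-fold or more and lower with Ad-NFIL3 by 2-fold or more. Areg had a signal of 889 in Ad-NFIL3 cells with FSK/PMA, 2505 in Ad-GFP cells with FSK/PMA and 203 in Ad-GFP cells. Ereg had signals of 326, 1364 and 73.1 on the same arrays, the last below the floor. For both genes the stimulated Ad-GFP array was highest, the unstimulated array lowest, and the Ad-NFIL3 array lay between them. With FSK/PMA against Ad-GFP alone, Areg was 12.3-fold higher and Ereg was at least 10.8-fold higher. With Ad-NFIL3 against Ad-GFP, both stimulated, Areg was 2.82-fold lower and Ereg was 4.19-fold lower. Each of these genes had 1 probe set, so no second probe set bears on these values. The differences can be set beside the spread of 1 probe set, estimated from the disagreement between a pair of probe sets of 1 gene. This robust standard deviation, that of the disagreement divided by the square root of 2, was 0.33 (log2) for FSK/PMA and 0.23 for NFIL3. It was taken over 2549 and 2500 genes with at least a pair of measured probe sets. On that log2 scale Areg differed by 3.63 and -1.49, and Ereg by at least 3.44 and by -2.07. This spread holds no variation between cultures.

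Both genes still stood above the unstimulated level when NFIL3 was added. Ad-NFIL3 cells with FSK/PMA had 4.38-fold more Areg signal than Ad-GFP cells without it, and at least 2.59-fold more Ereg signal. The 3 comparisons use 3 arrays in pairs and so share arrays: too high a signal on the stimulated Ad-GFP array would raise the FSK/PMA difference and lower the NFIL3 difference of the same gene.

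**Figure D1:**
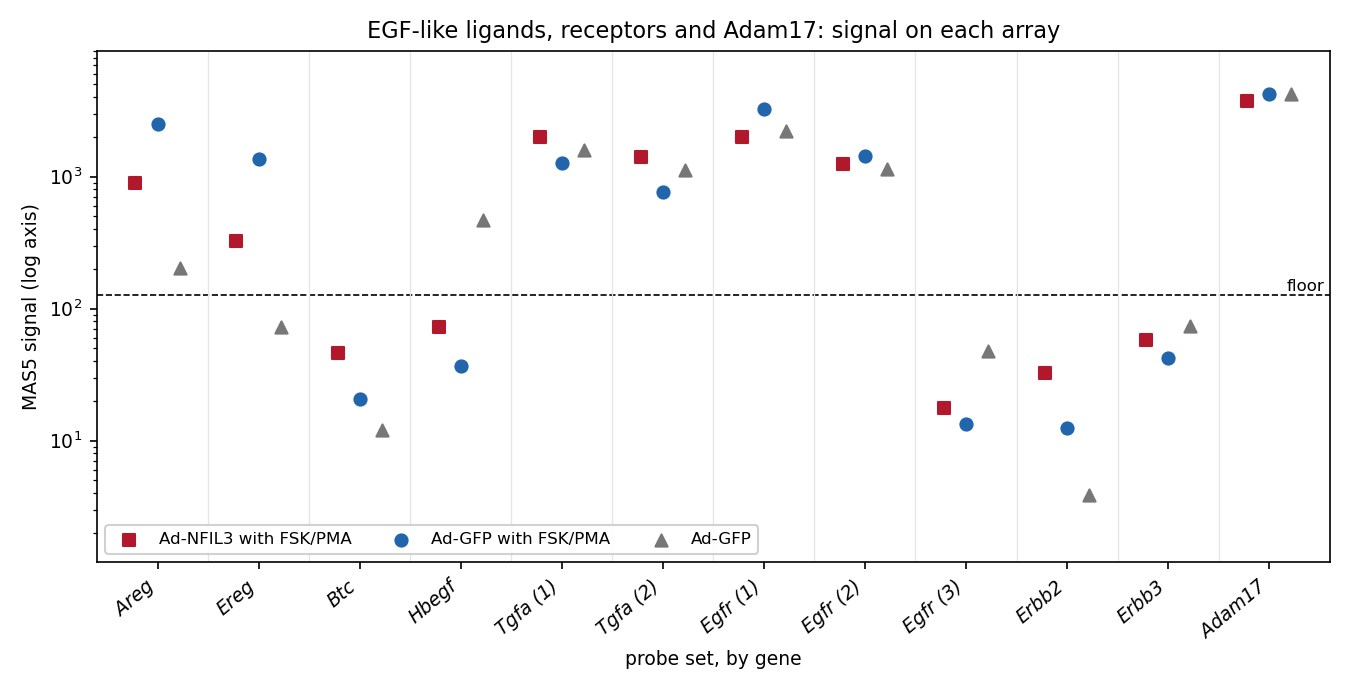
MAS5 signal (log axis) of all 12 probe sets of the 9 genes on the Ad-NFIL3 with FSK/PMA array (squares), the Ad-GFP with FSK/PMA array (circles) and the Ad-GFP array (triangles), 1 array per group, with no error bars for want of replicates; the dashed line is the floor of 126 and numbers in brackets number a gene's probe sets. Areg, Ereg, Tgfa, Egfr and Adam17 have probe sets above the floor on both stimulated arrays, and Hbegf is above it on the Ad-GFP array alone.

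The promoter of Areg is shown because it was the only promoter among those of the members available here that held the cyclic AMP response element (CRE), the site of CREB-family factors, on which forskolin acts through protein kinase A. RefSeq promoter windows of assembly GRCr8, with 250 bases before and 50 after the annotated transcript start, were matched for 7 of the 9 genes; those of Ereg and Erbb3 were not used here. The 250 bases before the start of Areg lie at chr14:17265642-17265891 on the minus strand. They read as follows, with the CRE in capitals.
Areg: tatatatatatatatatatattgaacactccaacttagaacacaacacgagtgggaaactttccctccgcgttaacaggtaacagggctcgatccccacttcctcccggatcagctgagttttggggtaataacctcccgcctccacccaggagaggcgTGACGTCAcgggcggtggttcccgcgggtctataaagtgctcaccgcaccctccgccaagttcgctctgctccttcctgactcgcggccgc
The CRE, TGACGTCA, lay from 91 to 84 bases before the start. It was found in 612 of 33469 rat windows, or 1.83%. Its core of 5 letters, TGACG, was searched on both strands and was found in 21.2% of windows. Among the members it occurred in Areg, within the CRE on either strand, and in Hbegf, from 193 to 189 bases before the start. The Hbegf stretch from 250 to 131 bases before the start (chr18:28390351-28390470, minus strand) is given with the core in capitals. Hbegf was lower with the stimulus, and a link between a match and the direction was not tested.
Hbegf: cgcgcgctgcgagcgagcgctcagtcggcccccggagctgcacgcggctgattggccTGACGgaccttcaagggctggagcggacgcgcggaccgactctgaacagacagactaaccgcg
No member window held the NFIL3 and PAR bZIP site TTACGTAA, which 0.12% of all windows held, its core TTACG (9.70%), or the AP-1 site TGAGTCA (4.63%), each searched on both strands. A match describes the letters of the window and shows no binding.

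**Figure D2:**
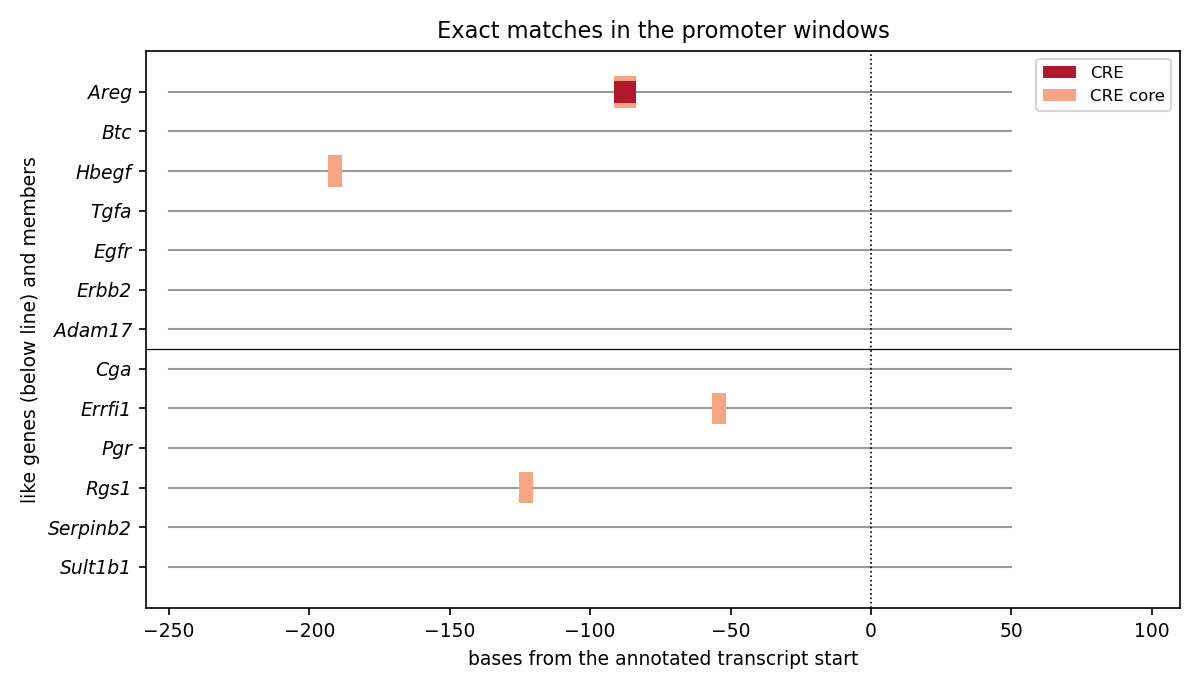
Position of exact matches to the CRE (dark) and its core of 5 letters (light) in promoter windows, in bases from the annotated transcript start; grey lines are the windows, from 250 bases before to 50 after it. Members stand above the black line, with matches in Areg (CRE) and Hbegf (core), and below it are the genes most like Areg or Ereg, with core matches in Errfi1 and Rgs1.

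Hbegf, which encodes the heparin-binding EGF-like growth factor, differed the other way. Its signal was 72.6 in Ad-NFIL3 cells with FSK/PMA, 36.6 in Ad-GFP cells with FSK/PMA and 473 in Ad-GFP cells. Only the unstimulated array was above the floor. In Ad-GFP cells Hbegf was thus at least 3.76-fold lower with FSK/PMA than without it. Ad-NFIL3 cells with FSK/PMA were also at least 3.76-fold lower than Ad-GFP cells, a comparison in which both virus and stimulus differ. The stimulated arrays could not be compared with each other.

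Tgfa, which encodes transforming growth factor alpha, was represented by a pair of probe sets that gave the same order. The brighter had signals of 2004 in Ad-NFIL3 cells with FSK/PMA, 1266 in Ad-GFP cells with FSK/PMA and 1606 in Ad-GFP cells, and the dimmer had 1410, 765 and 1123. The Ad-NFIL3 array was the highest and the stimulated Ad-GFP array the lowest for either probe set, whereas for Areg and Ereg the stimulated Ad-GFP array was the highest. With Ad-NFIL3 the log2 difference was 0.66 for the brighter and 0.88 for the dimmer probe set, or 1.58-fold and 1.84-fold higher. With FSK/PMA alone the log2 differences were -0.34 and -0.55. All of these lay within 2-fold. The brighter probe set is of a design that can bind several transcripts.

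Btc, which encodes betacellulin, had signals of 46.3, 20.6 and 12.0 on the Ad-NFIL3 with FSK/PMA, Ad-GFP with FSK/PMA and Ad-GFP arrays. All lay below the floor, so its level could not be compared. A signal below the floor does not show that the transcript was absent.

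Egfr, the receptor for these ligands, had 3 probe sets. The brightest gave 2011 in Ad-NFIL3 cells with FSK/PMA, 3242 in Ad-GFP cells with FSK/PMA and 2229 in Ad-GFP cells, and the next gave 1237, 1443 and 1145. Both were highest on the stimulated Ad-GFP array, but with differences of unequal size. With FSK/PMA the log2 differences were 0.54 and 0.33. With Ad-NFIL3 under stimulation they were -0.69 and -0.22. The pair disagreed in sign between Ad-NFIL3 cells with FSK/PMA and Ad-GFP cells, at -0.15 and 0.11. The remaining probe set stayed below the floor, at 17.7, 13.5 and 47.4. All Egfr differences were within 2-fold.

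The co-receptor genes Erbb2, whose product has no known ligand of its own, and Erbb3, whose product has little kinase activity and binds neuregulins, were below the floor on all arrays. Erbb2 had signals of 32.4, 12.5 and 3.88 on the Ad-NFIL3 with FSK/PMA, Ad-GFP with FSK/PMA and Ad-GFP arrays, and Erbb3 had 58.0, 42.3 and 73.9. Adam17 had the most even signals of the measured members. Its signal was 3745 in Ad-NFIL3 cells with FSK/PMA, 4226 in Ad-GFP cells with FSK/PMA and 4228 in Ad-GFP cells. Its log2 difference was 0.00 with FSK/PMA and -0.17 with Ad-NFIL3 under stimulation, each smaller than the disagreement between probe sets.

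**Figure D3:**
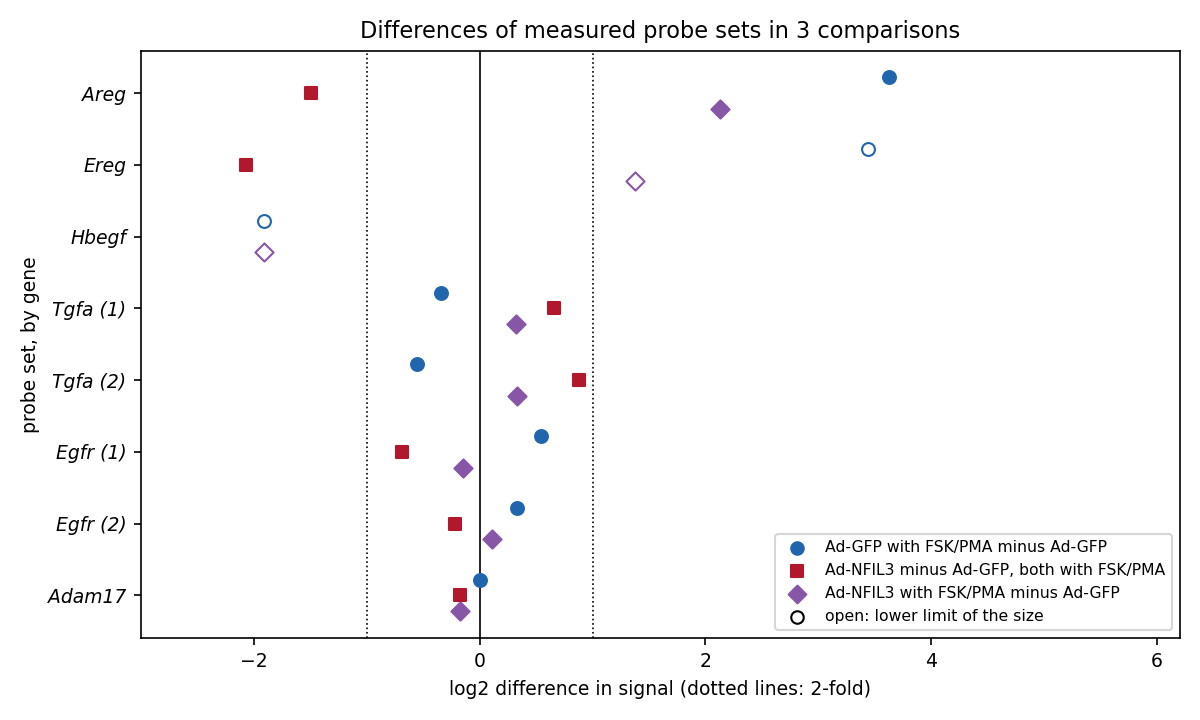
Log2 difference in signal of the 8 probe sets that could be measured, for FSK/PMA against no stimulus in Ad-GFP cells (circles), Ad-NFIL3 against Ad-GFP under stimulation (squares), and Ad-NFIL3 with FSK/PMA against Ad-GFP (diamonds); open symbols are lower limits of the size and dotted lines mark 2-fold. Areg and Ereg lie beyond 2-fold in all 3 comparisons and Hbegf in the pair in which it was measured, whereas the probe sets of Tgfa, Egfr and Adam17 lie within 2-fold.

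Counted together, 6 of the 9 members were measured in the FSK/PMA comparison, that is, above the floor on at least 1 of its arrays. Of these, 2 were at least 2-fold higher, against 7.43% of the 9395 genes measured, and 1 was at least 2-fold lower, against 11.4%. In the NFIL3 comparison 5 were measured; 2 were at least 2-fold lower, against 0.958% of 9397 genes, and 0 were at least 2-fold higher, against 1.34%. Between Ad-NFIL3 cells with FSK/PMA and Ad-GFP cells 6 were measured, with 2 higher, against 6.52% of 9647 genes, and 1 lower, against 9.05%. The median log2 difference of the measured members was 0.27, -0.69 and 0.09 in these comparisons. That of all measured genes was -0.10, 0.03 and -0.03. The median of -0.69 is the value of the brightest Egfr probe set, and the next Egfr probe set differed by -0.22. Members that lie above the floor only in the group where they are high had to differ, so these counts describe the measured members and not all 9.

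The all-gene counts depend on how arrays are scaled. In the NFIL3 comparison 126 genes were higher and 90 lower, against 48 and 190 after scaling to the median, 91 and 112 after quantile normalization and 89 and 114 after cyclic loess. In the FSK/PMA comparison 698 were higher and 1072 lower, against 856 and 852 after scaling to the median. Scaling to the median moved the all-gene median to -0.20 in the NFIL3 comparison and to 0.03 in the FSK/PMA comparison. Areg, Ereg, Hbegf, Egfr and Tgfa kept their direction under all of these scalings, wherever they were measured. Adam17 did not in the FSK/PMA comparison, where it ranged from -0.13 to 0.14.

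Ranked among all measured genes by log2 difference, Areg stood at 34 and Ereg at 39 from the highest of 9395 in the FSK/PMA comparison, Ereg by its lower limit. In the NFIL3 comparison Ereg stood at 6 and Areg at 23 from the lowest of 9397. Egfr stood at 254 from the lowest and Tgfa at 458 from the highest in that comparison, each by its brightest probe set. Hbegf stood at 187 from the lowest in the FSK/PMA comparison by its limit, so its true place may be nearer the end. Areg and Ereg thus stood near opposite ends of the range in the FSK/PMA and NFIL3 comparisons, which share an array.

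**Figure D4:**
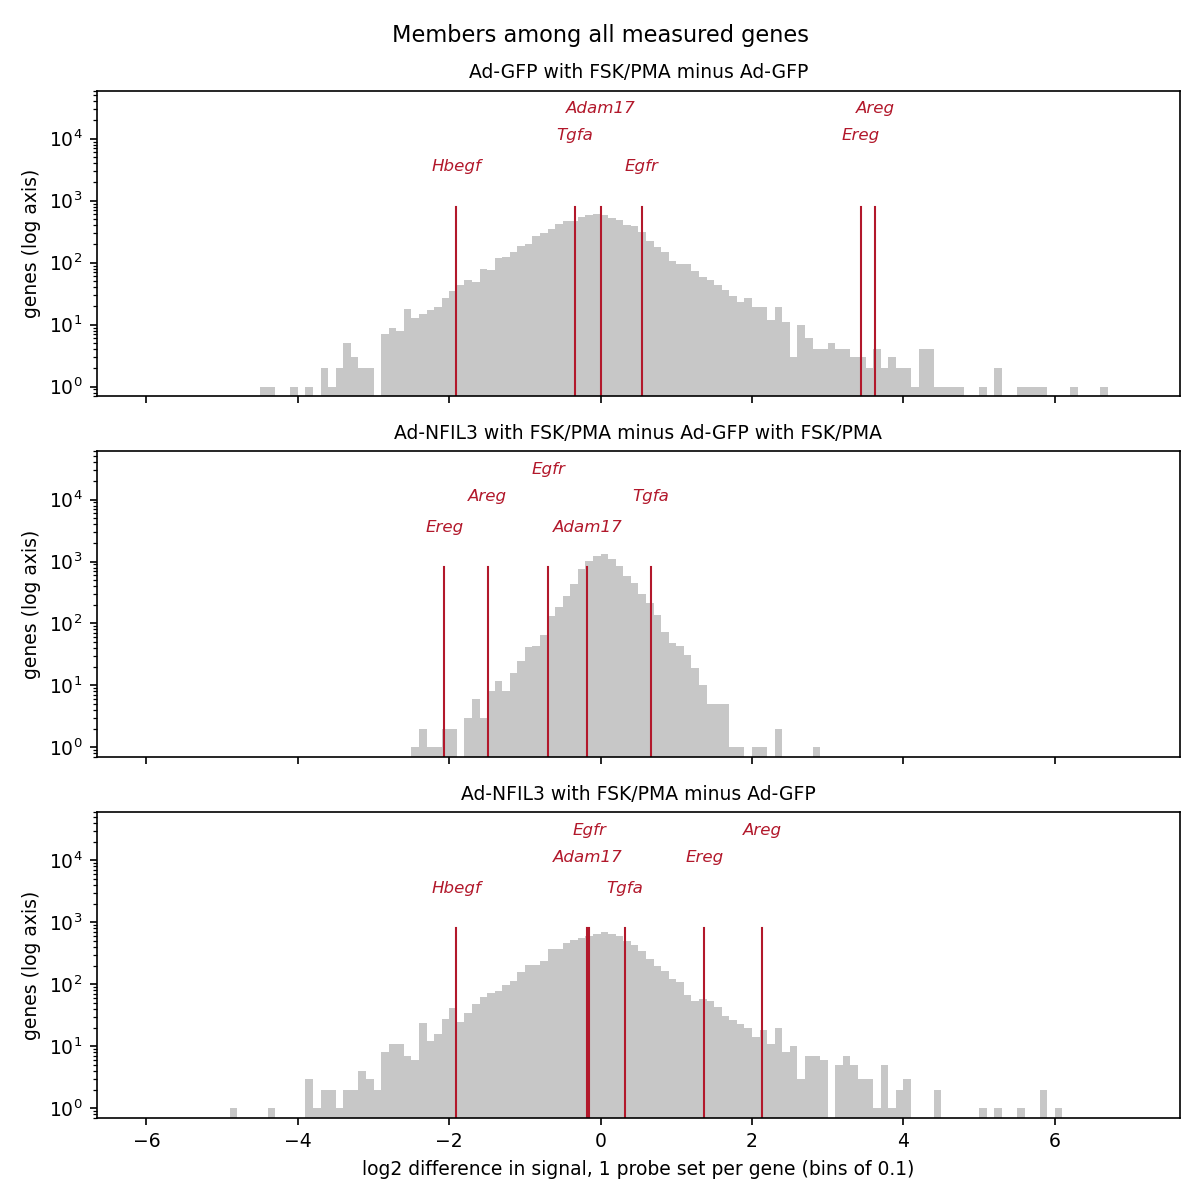
Number of genes (log axis) by log2 difference in signal, in bins of 0.1, for the 3 comparisons, with measured members marked by red lines; bounds are drawn at their limit. Areg and Ereg lie in the upper tail with FSK/PMA and in the lower tail with Ad-NFIL3, where Ereg stands at 6 and Areg at 23 from the lowest of 9397 genes.

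The gene order of assembly GRCr8 places Btc, Areg, Ereg and Epgn, which encodes epigen, as consecutive protein-coding genes on chromosome 14, so the neighbours of this cluster were read as well; they were chosen after their values were seen. Epgn was not analysed here. On the Btc side, Parm1 had signals of 503 in Ad-NFIL3 cells with FSK/PMA, 731 in Ad-GFP cells with FSK/PMA and 236 in Ad-GFP cells, the order of Areg and Ereg with smaller differences. It was 3.10-fold higher with FSK/PMA and differed by -0.54 (log2) with Ad-NFIL3. On the Epgn side, Mthfd2l, a mitochondrial folate enzyme gene, had signals of 398, 490 and 345 on the same arrays. Of the chemokine genes that follow, Cxcl2 had signals of 110, 158 and 61.5 and Cxcl1 had 349, 86.5 and 60.5. Mthfd2l and Cxcl2 thus also had the order of Areg and Ereg, although Cxcl2 was above the floor on the stimulated Ad-GFP array alone. Cxcl1 did not have this order. It was above the floor on the Ad-NFIL3 array alone, at least 2.77-fold higher than in stimulated Ad-GFP cells.

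The genes whose pair of log2 differences, for FSK/PMA and for NFIL3, lay nearest to that of Areg or Ereg were looked up. Only genes that reached 4 times the floor were used, and those with a numbered LOC or RGD symbol were left out. For Areg they were, in order of distance, Sult1b1 (distance 0.24), Errfi1 (0.41), Rgs1 (0.48), Osgin2 (0.56) and Ereg (0.60). For Ereg they were Rgs1 (0.13), Cga (0.40), Areg (0.60), Serpinb2 (0.74) and Pgr (0.76). The likeness rests on 3 arrays, and a distance between genes near the floor rests on limits. The FSK/PMA differences of Ereg, Rgs1, Cga, Serpinb2, Pgr and Sult1b1 were all lower limits, so genes with unlike unstimulated signals can stand close together. Errfi1 encodes MIG6, an inhibitor that binds EGFR itself. Its signal was 1271 in Ad-NFIL3 cells with FSK/PMA, 2836 in Ad-GFP cells with FSK/PMA and 271 in Ad-GFP cells. It was 10.5-fold higher with FSK/PMA and 2.23-fold lower with Ad-NFIL3. Rgs1, a regulator of G protein signalling, had signals of 357, 1368 and 9.51 on the same arrays. Pgr, the progesterone receptor, had 243, 836 and 44.4. Of the 7 like genes that are not members, 6 had a promoter window, 0 of these held the CRE, and Errfi1 and Rgs1 held its core.

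Genes around the ligands were read by 7 lists drawn up by role. Among 16 genes on the array that act upstream of the ligands, 14 were measured in the FSK/PMA comparison. Of these, 4 were at least 2-fold higher and 2 lower, against 7.43% and 11.4% of all measured genes. The median log2 difference was 0.39. Besides Pgr and Nfil3, the higher genes were Crem, a cyclic AMP-responsive transcription factor (8.50-fold), and Cebpb, a factor needed for ovulation in mice (3.73-fold). Nrip1, a nuclear receptor coregulator that mice need for Areg expression in the follicle, was 4.40-fold lower, and Lhcgr, the luteinizing hormone receptor, was 2.68-fold lower. In the NFIL3 comparison 13 were measured, with a median of -0.20. There 1 was higher and 2 were lower, against 1.34% and 0.958% of all measured genes. Pgr was 3.44-fold and Lhcgr was 2.15-fold lower, and Nfil3 itself, which is counted in this list and its median, was 4.45-fold higher. Crem differed by -0.69 and Nrip1 by -0.74 on the log2 scale. The dimmer probe sets of Crem disagreed in size, between -1.17 and -0.05. Probe sets also disagreed for Creb1 and Cebpa, whose brightest differed by -0.10 and 0.39 with Ad-NFIL3. A dimmer probe set of Creb1 differed by -0.92, and a dimmer probe set of Cebpa was 2.36-fold higher. With FSK/PMA the same dimmer probe set of Creb1 was at least 2.10-fold higher, while the brightest differed by -0.23.

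Of 13 genes for ligand shedding and trafficking on the array, 11 were measured with FSK/PMA, with a median of -0.11. Among them 2 were higher and 0 lower, against 7.43% and 11.4% of all measured genes. Timp1, a metalloproteinase inhibitor, was 4.10-fold higher and the sheddase gene Adam19 was 3.78-fold higher. Rhbdf1, which encodes a rhomboid protein that helps ADAM17 mature, was 1.996-fold lower and just missed 2-fold. With Ad-NFIL3, 10 were measured and 1 was lower, Timp3, where 0.958% of all measured genes were lower. Timp3, whose product inhibits ADAM17, had signals of 571 in Ad-NFIL3 cells with FSK/PMA, 1197 in Ad-GFP cells with FSK/PMA and 2199 in Ad-GFP cells. That was 2.09-fold lower with Ad-NFIL3. Its dimmer probe sets differed by -0.74, -0.80 and -0.09, the last near the floor. The median of the list was 0.08.

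Of 12 adaptor and ERK cascade genes on the array 11 were measured, 1 higher and 1 lower with FSK/PMA, with a median of -0.19. Of all measured genes 7.43% were higher and 11.4% lower, so these counts are near the background. Map2k1, which encodes the kinase MEK1, was 2.73-fold higher and Gab1, a docking protein of EGFR signalling, was 3.94-fold lower. Probe sets disagreed for the adaptor gene Grb2 and the kinase gene Rps6ka3. The brightest differed by 0.30 for Grb2 and -0.41 for Rps6ka3 (log2), but a dimmer probe set was 2.88-fold higher for Grb2 and 2.32-fold higher for Rps6ka3 with FSK/PMA. With Ad-NFIL3, 0 of the 11 differed by 2-fold in either direction, where 1.34% of all genes were higher and 0.958% lower, and the median was 0.17. Gab1 had the largest difference there, at 0.55 (log2).

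Genes of receptor feedback and turnover had a higher median. Of 17 on the array 14 were measured with FSK/PMA, with a median of 0.74. Among these 6 were higher and 1 lower, against 7.43% and 11.4% of all measured genes. Dusp5 and Dusp6, phosphatases that switch off ERK, were 16.1-fold and 10.0-fold higher, and Dusp1 was 3.98-fold higher. Lrig1, whose product promotes degradation of ERBB receptors, was 3.26-fold lower. With Ad-NFIL3 the median was -0.06. Errfi1 was the 1 gene past 2-fold, lower, where 0.958% of all measured genes were lower. The Sprouty genes Spry4 and Spry2, which restrain RAS and ERK signalling, differed by -0.97 and -0.93, while Dusp5 differed by -0.73 and Dusp6 by -0.03. Dusp6 had signals of 18501 in Ad-NFIL3 cells with FSK/PMA, 18899 in Ad-GFP cells with FSK/PMA and 1883 in Ad-GFP cells. Near 0 the sign of a difference in the NFIL3 comparison depends on the scaling, and for Dusp6 it ranged from -0.27 to 0.02.

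Of 17 transcripts known to respond to ERK, 14 were measured, with a median of 1.33 with FSK/PMA. There 10 were at least 2-fold higher and 0 lower, against 7.43% and 11.4% of all measured genes. Plaur, the urokinase receptor, was 13.0-fold higher, and the early response genes Ier2, Ier3 and Junb were 5.99-fold, 4.32-fold and 3.36-fold higher. With Ad-NFIL3 the median was 0.00, and 13 of the 14 were within 2-fold. Egr2, an early zinc finger factor, was the exception at 2.51-fold higher, where 1.34% of all measured genes were higher by 2-fold or more. Ier2 and Junb differed by -0.46 and -0.45.

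Among 6 cumulus expansion genes on the array that depend on EGFR, 5 were measured. With FSK/PMA 2 of these were higher by 2-fold or more and 0 lower, against 7.43% and 11.4% of all measured genes. Those were Tnfaip6 and Ptgs2, at least 78.1-fold and at least 52.8-fold higher. The other 3 were within 2-fold, and the median was 0.08. With Ad-NFIL3 1 of these 5 was lower, against 0.958% of all measured genes. It was Ptgs2, which encodes the inducible cyclooxygenase, by 3.96-fold. Vcan, the matrix proteoglycan versican, differed by -0.60, and Tnfaip6 by -0.26, with -0.75 for its dimmer probe set. Has2, the hyaluronan synthase of the expanding matrix, was below the floor on all arrays. Of the other ligand and receptor genes of the family, 5 were on the array. Only Nrg1, which encodes neuregulin 1, was above the floor on any array, at 140 on the Ad-NFIL3 array, against 42.1 in stimulated Ad-GFP cells, and Egf, Nrg2, Nrg4 and Erbb4 stayed below it on all arrays.

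**Figure D5:**
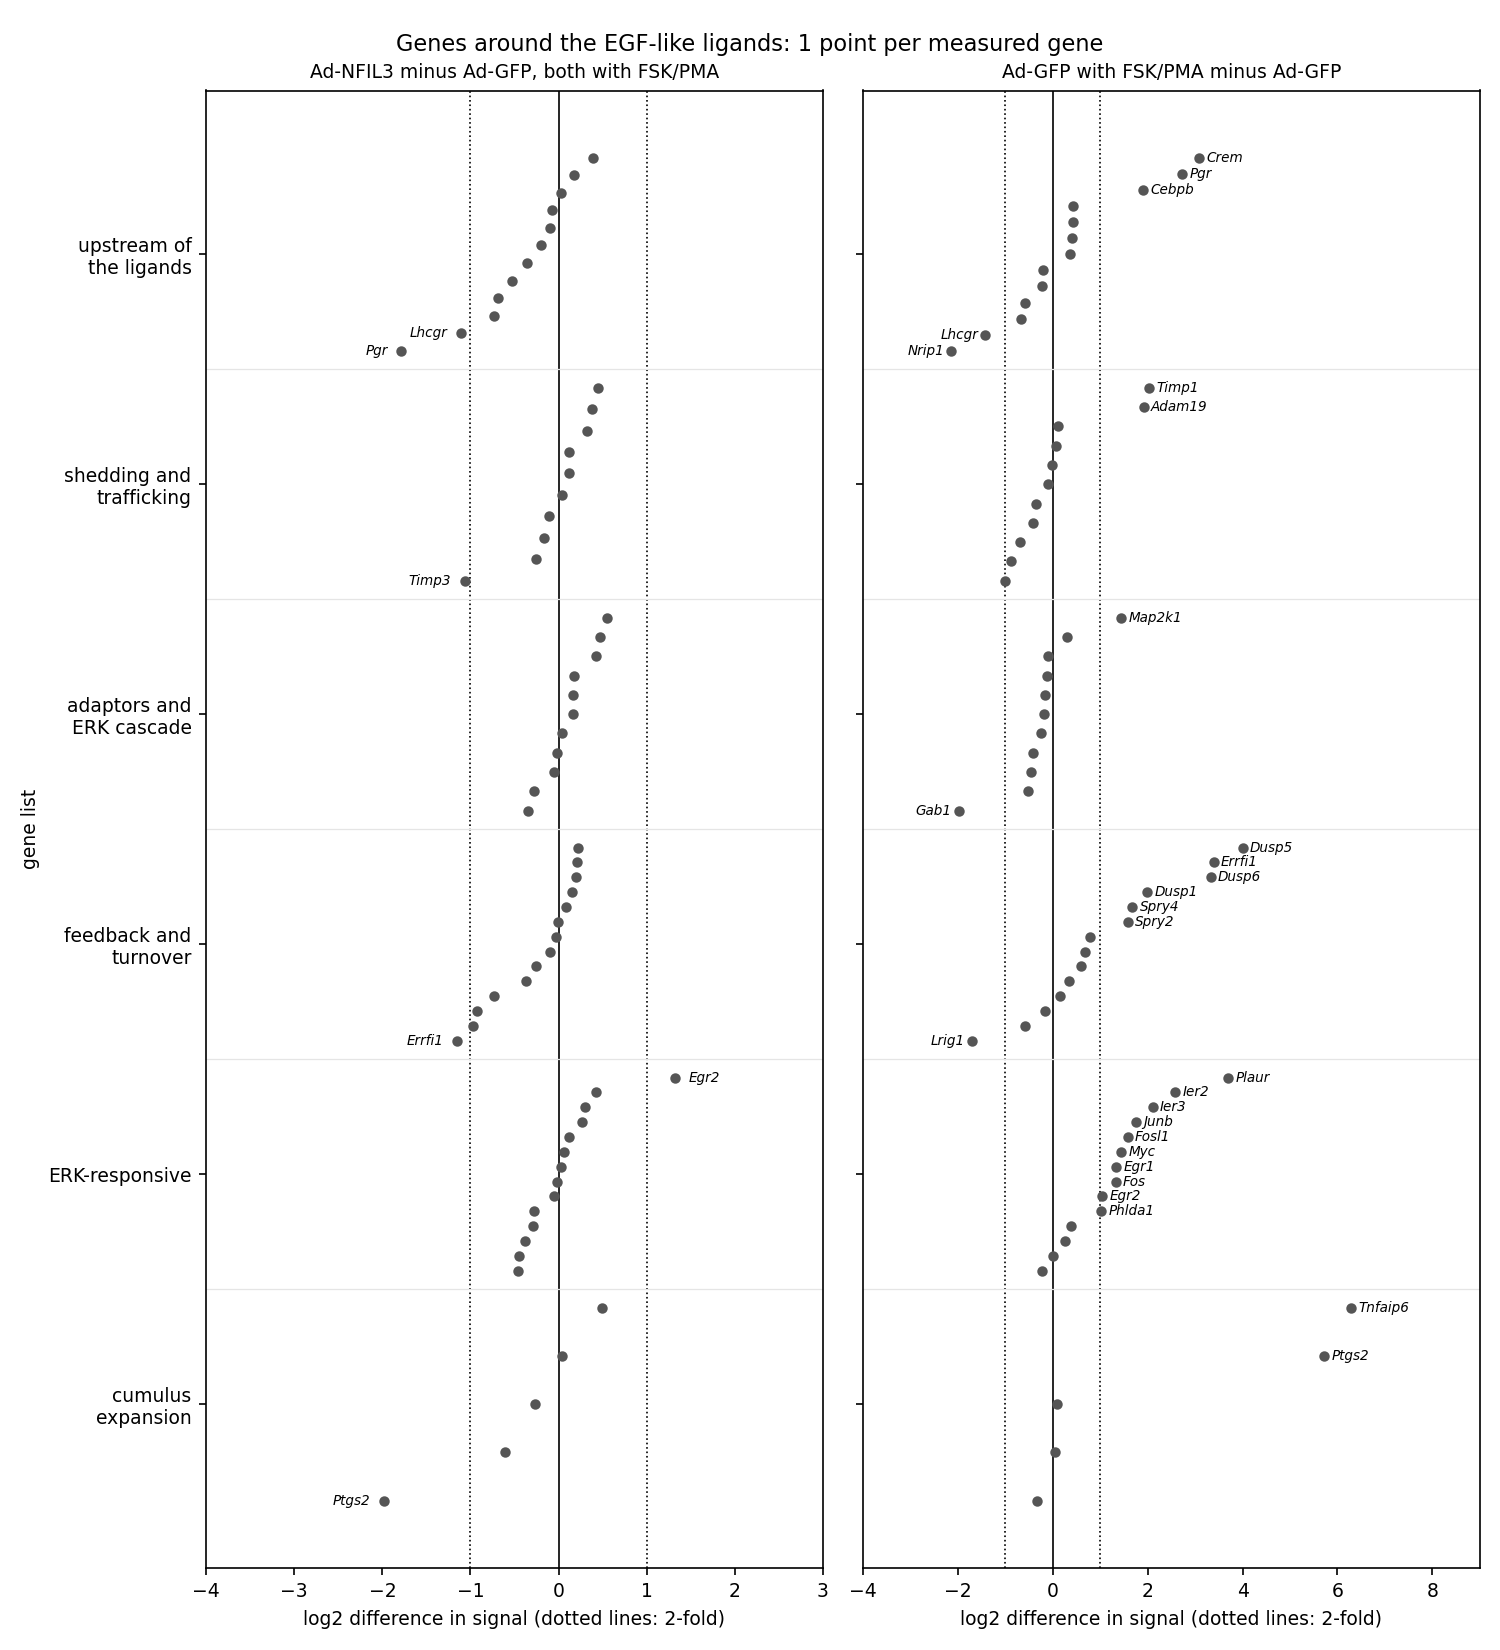
Log2 difference in signal of each measured gene of 6 lists around the EGF-like ligands, for Ad-NFIL3 against Ad-GFP under stimulation (left) and for FSK/PMA against no stimulus in Ad-GFP cells (right); 1 point is 1 gene, bounds stand at their limit, genes past 2-fold (dotted lines) are named, and Nfil3 is left out. The ERK-responsive and feedback genes reach to the right with FSK/PMA, 10 and 6 of them past 2-fold, against 7.43% of all measured genes. With Ad-NFIL3 1 gene of each list lies past 2-fold, Egr2 higher and Errfi1 lower, against 1.34% and 0.958% of all measured genes.

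Markers of other cells were set beside these values, and their part in them was not tested. Leukocyte markers (7 of 7 on the array) had summed signals of 3160 on the Ad-NFIL3 with FSK/PMA array, 2830 on the Ad-GFP with FSK/PMA array and 2072 on the Ad-GFP array, with Ptprc, the defining CD45 gene, and Itgam below the floor on all. Theca and stroma markers (9 of 9) summed to 1530, 1067 and 1271, with the theca genes Cyp17a1 and Insl3 and the stroma gene Lum below the floor. Dcn, decorin, had signals of 481, 196 and 201 and was 2.45-fold higher with Ad-NFIL3. The other measured markers of this list, Col1a2, Col3a1 and Pdgfra, differed by 0.25, 0.05 and at least 0.24 (log2) there. Endothelial markers (5 of 6) summed to 529, 485 and 418, with Pecam1, Tek and Vwf below the floor. Oocyte markers (5 of 7) summed to 430, 575 and 967, with Zp1, Zp3, Gdf9 and Bmp15 below the floor. Single genes made up much of some sums. Zp2 had signals of 269, 406 and 891 in the same order of arrays. Among leukocyte markers Cd14 had 1562, 1488 and 606, while Lyz2 had 970, 769 and 1110.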

How the data were processed

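Granulosa cell RNA of 3 groups was measured, 1 Affymetrix rat array each. Per the submitters' processing notes the authors used MAS5, which gives 1 intensity for each probe set on the deposited linear scale; no version is named there. The deposited columns shared a 2% trimmed mean of about 500, so the authors had scaled the arrays, and dim MAS5 signals are noisy. Here arrays were brought to a common trimmed mean, signals were floored at 126 before log2 (Python 3.11.15, pandas 2.3.3; cyclic loess with limma 3.58.1 in R 4.3.3). The platform annotation gave 1 symbol for 20832 probe sets, several for 436 and none for 9831; 20764 matched RefSeq GRCr8 by Entrez ID. The probe set of highest mean signal stood for its gene, which counted as measured if above the floor on 1 or both arrays compared. No test was possible with 1 array per group.

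The members and gene lists were chosen with earlier results of these data known. The text names all members, up to 4 genes with the largest difference per list and comparison, genes set beside these, and the 5 genes nearest to Areg and to Ereg. List genes absent from the annotated table were not analysed here. The planned comparison of ligand proteins was not made. The code was tested on simulated data, where it recovered the folds put in. Those folds were put only into genes with signals far above the floor. Each was larger than the difference of Areg with Ad-NFIL3. How well smaller differences, dim genes and lower limits are recovered was not tested. There were 9 alternative settings.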

Additional observations from a re-analysis of the deposited data

How the results depend on the processing

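No paired analysis was possible because each group has 1 array, and no array could be left out. Of 54 counts of members under 9 alternatives, 48 were within 1.5 times the main count. The exceptions follow. With a floor at the 75th percentile 0 members were lower with FSK/PMA, and 0 were higher and 0 lower in Ad-NFIL3 cells with FSK/PMA against Ad-GFP cells, because this floor, 547, lies above all Hbegf signals, the Ereg signal on the Ad-NFIL3 array and the Areg signal of Ad-GFP cells. With a threshold of 1.5-fold 1 member, Tgfa, was higher in the NFIL3 comparison. With 3-fold 1 member, Ereg, was lower there, and 1, Areg, was higher against Ad-GFP cells.

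Over the other floors, scalings and choices of probe set Areg ranged from 2.19 to 3.76 (log2) with FSK/PMA and from -1.73 to -1.45 with Ad-NFIL3. Ereg ranged from 1.32 to 4.22 and from -2.30 to -1.32, and Hbegf from -3.36 to -1.84 with FSK/PMA. No member past 2-fold changed sign under an alternative that measured it, and Adam17, near 0, did with FSK/PMA. In the NFIL3 comparison Tgfa ranged from 0.43 to 0.88 and Egfr from -0.93 to -0.46.

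Counts of all genes moved more. In the FSK/PMA comparison 420 were higher and 402 lower with the floor at the 75th percentile, 1403 and 2259 past 1.5-fold, and 285 and 345 past 3-fold. In the NFIL3 comparison they were 48 and 190 with scaling to the median, 545 and 236 with the floor at the 25th percentile, 36 and 48 at the 75th, 640 and 399 past 1.5-fold, and 13 and 18 past 3-fold. In Ad-NFIL3 cells with FSK/PMA against Ad-GFP cells 1082 were higher with the floor at the 25th percentile, 343 and 381 were higher and lower at the 75th, 1411 and 1942 past 1.5-fold, and 252 and 305 past 3-fold. Other thresholds change counts by construction. Other floors change which genes are measured, with 12471 in the NFIL3 comparison at the 25th percentile and 5522 at the 75th, against 9397. Scaling to the median shifts differences between signals above the floor by a common amount. What else moved the counts was not tested. Signals near the floor limit what can be said of Btc, Erbb2, Erbb3 and Hbegf.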

Other observations

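Nrg1, the neuregulin 1 gene, had 8 probe sets. On the Ad-NFIL3 with FSK/PMA array 2 of them were above the floor, and 0 were on either of the other arrays. The 5 member probe sets that lay below the floor on both stimulated arrays, those of Btc, Hbegf, Erbb2 and Erbb3 and the dimmest of Egfr, all had a higher signal on the Ad-NFIL3 array than on the Ad-GFP with FSK/PMA array. The same held for 58.7% of the 14366 probe sets on the array, with or without a gene symbol, that were below the floor on both. The 25th percentile of all signals was 51.5 on the Ad-NFIL3 with FSK/PMA array and 43.7 on the Ad-GFP with FSK/PMA array.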
